A study of Caenorhabditis elegans with 14 samples.

Results

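XX males of Caenorhabditis elegans were compared between the L3 larval stage and young adulthood. These animals have 2 X chromosomes, which in the wild type gives a hermaphrodite, but they develop as males. They belong to strain CB5362, which is known from the literature to carry mutations in the sex determination genes tra-2 and xol-1. The labels name the strain and no allele, and both stages come from it. RNA of whole worms was selected on oligo(dT) beads and sequenced from stranded libraries, with 3 libraries of L3 larvae grown for 24 h after an overnight hatch and 4 libraries of young adults grown for 44 h at 25 °C. The temperature of the larvae is not given, so temperature cannot be told apart from stage. Genes were included when their mean over these 7 libraries was at least 1 FPKM (fragments mapped to a transcript, scaled to its length and to the depth of the library), which kept 14458 of the 20376 genes with a value in every library. The gene just inside that limit was C09F12.3, with a mean of 1.0003 FPKM, and the gene just outside it was T28C6.3, with 0.999. The other libraries among the 14 of the series, of XO hermaphrodites, are used only as side values. No source says whether the replicates are separate cultures, and the p-values reflect only the spread among these libraries, which may be technical.

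Between L3 and adulthood the male worm passes through its last larval stage, molts, and completes a tail and a gonad that are used for mating. The male germ line makes only sperm, which are amoeboid, lack a flagellum and are filled with the major sperm protein that drives their crawling. A new cuticle, built largely of collagens encoded by a large gene family, is made at each molt, and many collagen genes are known to be used at some molts and not at others. Molting and stage identity are set by a timing pathway whose members include the period homolog lin-42, nuclear hormone receptors and the heterochronic genes. Sex in the worm is set by a cascade in which xol-1 promotes male development, tra-2 encodes a membrane protein that promotes hermaphrodite development, and tra-1 encodes the transcription factor at its end.

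The targeted genes were examined in every library. All 7 libraries listed xol-1 at 0 FPKM. The tra-2 gene was present at 14.9, 15 and 17.1 FPKM in L3 replicates 1 to 3 and at 19.5, 18.1, 16.8 and 17.7 FPKM in young adult replicates 1 to 4, a log2 change of 0.19 that did not pass the test (limma adjusted p = 0.281). A level of mRNA does not check a mutation that leaves the transcript in place, so neither gene shows the genotype on its own. The her-1 gene, which encodes the secreted male-promoting ligand of the tra-2 receptor, averaged under the filter and was not tested. It stood at 0.902 to 1.69 FPKM at L3 and at 0.401 to 0.788 FPKM in young adults. The tra-1 gene stood at 32.4 to 59.3 FPKM at L3 and at 43.9 to 64.9 FPKM in young adults and did not pass the test.

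L3 replicate 1 stood apart from the other larvae in its sperm genes. The sum over 13 sperm marker genes was 695 FPKM in L3 replicate 1, 4.41 in replicate 2 and 28.9 in replicate 3, against 11016 to 16697 FPKM in young adults. All 13 markers reached 1 FPKM in L3 replicate 1, 10 did in replicate 3 and 1 did in replicate 2. Spearman correlations of all tested genes between an L3 library and a young adult library were 0.660 to 0.713 for L3 replicate 1 and 0.481 to 0.544 for L3 replicates 2 and 3. Among L3 libraries they were 0.884 to 0.930, and among young adults 0.963 to 0.988. The median SD per gene was 0.35 on the log2 scale at L3 and 0.21 in young adults. Relative depth, read from the steps between low values, was 0.293, 0.275 and 0.919 in L3 replicates 1 to 3 and 0.619 to 1.46 in the adults when young adult replicate 1 is set to 1, so low genes are less precise in L3 replicates 1 and 2. List counts are therefore given with and without L3 replicate 1. Some of the single genes whose change that replicate moved are also given without it, and others are given with all libraries only.

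The stage comparison changed a large share of the transcriptome. A gene was called when its limma adjusted p was under 0.05. In young adults 3350 genes were higher (23.2% of those tested) and 4381 were lower (30.3%), which together make 53.5%. Without L3 replicate 1 the counts were 3272 higher (22.6%) and 4035 lower (27.9%). Of these calls 6942 were shared in the same direction, 789 were made only with the replicate and 365 only without it, and 0 changed direction. Large changes were mostly rises. A log2 change of at least 5, on the scale of FPKM + 1 used throughout, was found for 456 called genes that rose and for 10 that fell. Among called genes, 175 that rose were listed at 0 in all L3 libraries, and 6 that fell were listed at 0 in all young adult libraries. The libraries of the stages did not overlap for 3562 genes higher in young adults (24.6%) and for 4769 higher at L3 (33%).

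The balance of rises and falls depended on scaling. On FPKM as deposited 43.3% of the calls were rises and the median change of all tested genes was -0.21. Median ratio scaling gave 4392 higher (30.4%) and 2965 lower genes (20.5%), 59.7% of the calls being rises, with a median of 0.08. Quantile normalization gave 3061 higher (21.2%) and 5957 lower genes (41.2%), 33.9% rises, with a median of -0.38. Small changes of a whole gene group are best read against those medians. List counts are best read against the shares of all genes, 23.2% higher and 30.3% lower. Since whole worms were used, fewer or more cells of a type and less or more RNA per cell cannot be told apart in any result below.

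**Figure D1:**
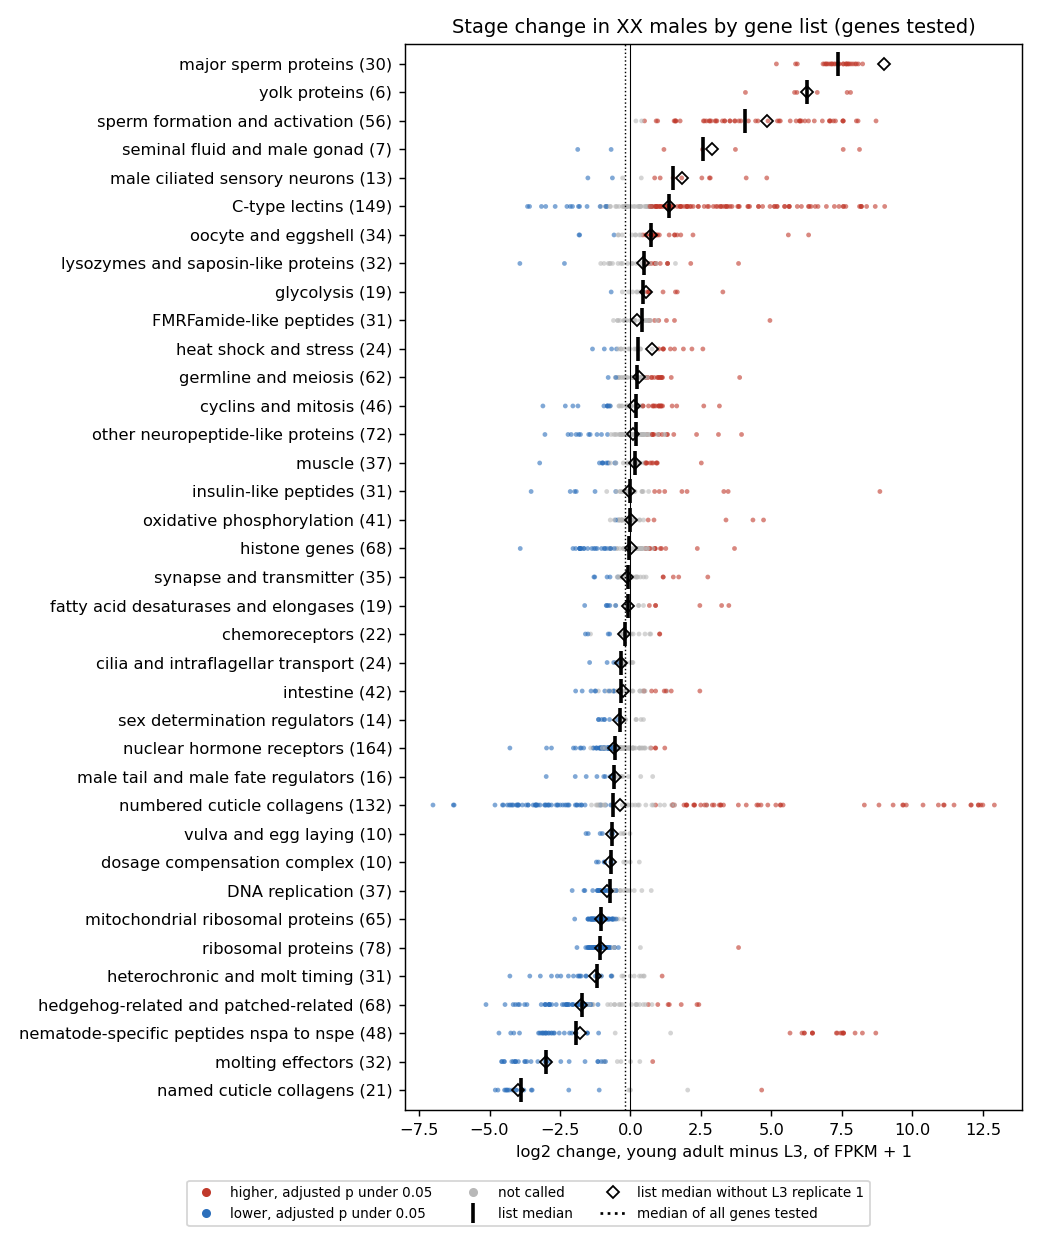
Log2 change from L3 to young adult (x axis, FPKM + 1) of each tested gene in 37 gene lists (y axis, number of genes tested in parentheses), with points coloured by call, bars at list medians and diamonds at medians without L3 replicate 1; the dotted line is the median of all tested genes, -0.21. Major sperm proteins, yolk proteins and sperm formation genes lie highest, and named cuticle collagens and molting effectors lie lowest, with medians of -3.90 and -3.01.

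Among the 37 lists, major sperm protein genes had the highest median rise. All 30 major sperm protein genes tested rose, with a median log2 change of 7.37 and a range of 5.18 to 8.24, against a median of -0.21 over all genes. Without L3 replicate 1 all 30 were again called and the median was 9.0. The summed level of the family was 1749, 14.6 and 68.9 FPKM in L3 replicates 1 to 3 and 31199, 31267, 31155 and 45852 FPKM in the young adults. The stages did not overlap for any of the 30 genes. In young adults the family made up 2.40% to 3.59% of all FPKM, against 0.136% in L3 replicate 1. The genes of this family are close copies of each other and the sources used here do not say how the authors divided shared reads, which leaves the values of single members uncertain.

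The msp-76 gene, a major sperm protein gene, stood at 127, 0 and 4.55 FPKM in L3 replicates 1 to 3 and at 2347, 2259, 2444 and 4026 FPKM in young adult replicates 1 to 4. Its log2 change was 8.24 (SE 1.40, adjusted p = 0.00183), and 10.16 without L3 replicate 1 (adjusted p = 5.8e-06). The larval libraries lay below every adult library, and the larva nearest to the adults was replicate 1. The msp-81 gene stood at 109, 0.436 and 2.87 FPKM at L3 and at 1862 to 3009 FPKM in young adults, with changes of 8.01 with and 9.86 without replicate 1. The msp-55 gene, at 22.1, 0.568 and 1.81 FPKM at L3 and 1093 to 1658 FPKM in young adults, changed by 8.09 with and 9.24 without it.

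**Figure D2:**
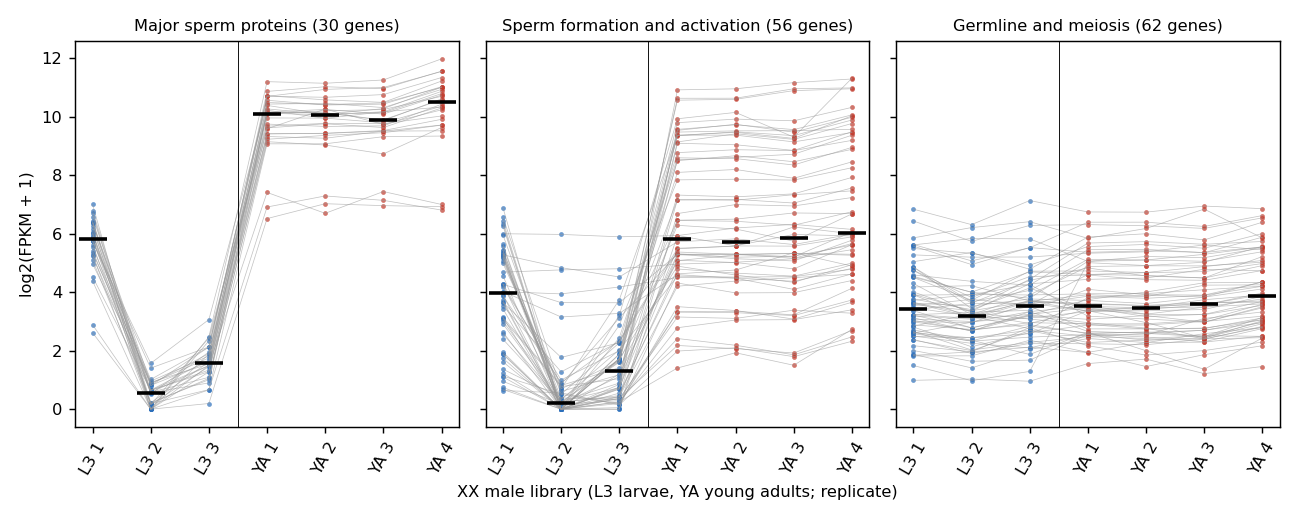
Log2(FPKM + 1) of every tested gene (points, joined by grey lines across libraries; black bars are medians) in each of the 7 XX male libraries for 3 gene lists. Major sperm protein and sperm formation genes are low in L3 replicates 2 and 3, intermediate in L3 replicate 1 and high in the 4 young adults, whereas germline and meiosis genes have similar medians in all libraries.

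Genes that build and activate sperm followed the same order of libraries. Of the 56 tested (59 in the table), 54 rose and 0 fell, with a median change of 4.05, and without L3 replicate 1 the count was 53 and the median 4.86. The list holds regulators of spermatogenesis, structural proteins and fusion proteins. Among regulators, fog-3, a Tob family protein needed for sperm fate, changed by 0.91 from 22 to 37.8 FPKM at L3 to 48.5 to 62.4 FPKM in young adults. The fog-1 gene, a CPEB-type RNA-binding protein with the same role, changed by 0.40 and did not pass the test. The spermatocyte transcription factor spe-44, tag-347 in the table, rose by 2.59, from 18.5, 0.806 and 7.70 FPKM at L3 to 35.6 to 47.9 FPKM. The testis-specific phosphatase catalytic subunits gsp-3 and gsp-4 rose by 6.02 and 6.07.

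Structural sperm proteins stood highest. The ssp-10 gene, of the sperm-specific family of proteins with a major sperm protein domain, stood at 76, 0 and 0.798 FPKM in L3 replicates 1 to 3 and at 1932, 1981, 2295 and 2501 FPKM in young adults. This change of 8.71 (SE 1.33, adjusted p = 0.00114) became 10.66 without L3 replicate 1. All larvae lay below all adults. The paternal factor spe-11, which enters the egg with the sperm, was at 7.78, 0 and 0.607 FPKM at L3 and at 87.1 to 104 FPKM in young adults, a change of 5.32. The fertilization protein spe-9 was lower throughout, at 0.256 to 1.58 FPKM at L3 and 8.19 to 12.3 FPKM in young adults, and rose by 2.69. The sperm chromatin gene spch-3, T27A3.4 in the table, went from 192, 0.729 and 10.3 FPKM to 1541 to 2264 FPKM, with changes of 6.90 with and 8.72 without L3 replicate 1. None of the 30 major sperm protein genes and none of the 56 sperm formation genes tested lies on the X chromosome. That chromosome holds 1955 of the 14458 genes tested. A count of 0 on X was not particular to the sperm lists. It was also found for germline and meiosis (62 tested), oocyte and eggshell (34) and DNA replication (37). Mitochondrial ribosomal proteins (65) and fatty acid desaturases and elongases (19) had 0 on X as well.

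Leaving out L3 replicate 1 moved a limited set of genes. The log2 change went up by more than 1 for 288 genes, of which 280 were called higher with all libraries and 52 are on the sperm lists, and it went down by more than 1 for 5 genes. The 10 called genes that moved most were msp-76, msp-81, msp-36, ssp-9, ssp-10, ssp-11, nspd-1, nspd-2, T27A3.4 and F13E9.19. All of them stood higher in L3 replicate 1 than in the other larvae, which largely follows from how they were picked. F13E9.19, for example, was at 42.4 FPKM in L3 replicate 1, listed at 0 in both other larvae, and at 402 to 482 FPKM in young adults. The direction of these genes was the same with and without the replicate, and only the size of the rise changed.

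**Figure D3:**
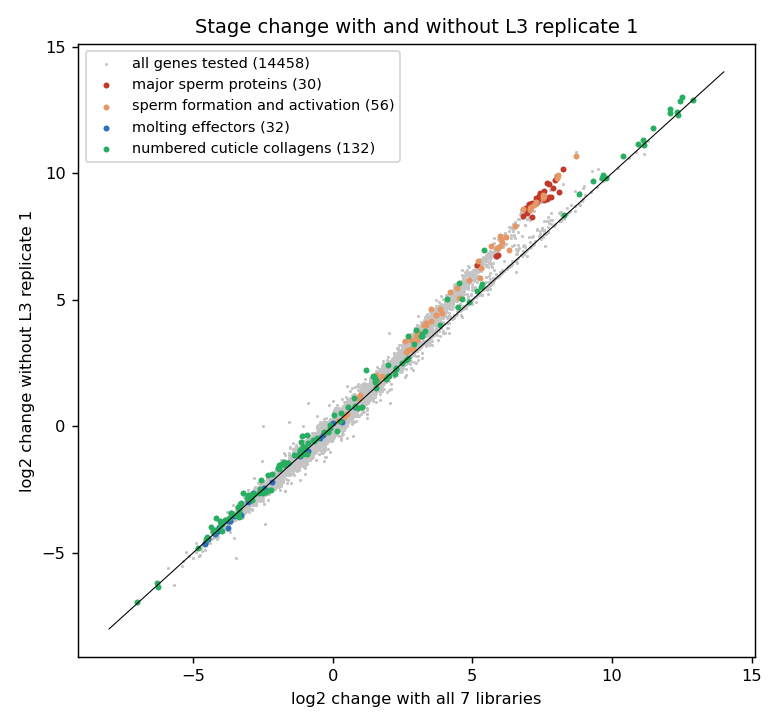
Log2 change of each tested gene with all 7 libraries (x axis) and without L3 replicate 1 (y axis), with 4 gene lists coloured and the diagonal marking equal values. Sperm genes lie above the diagonal, molting effectors lie close to it, and 288 genes in all moved up by more than 1.

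Most genes of the male gonad and seminal fluid were higher in young adults, some of them from larval levels near 0. Of 7 tested, 5 rose and 2 fell, with and without L3 replicate 1. The lectin gene clec-207, expressed in the male gonad, was listed at 0 in the 3 larvae and stood at 244, 271, 262 and 343 FPKM in the young adults (adjusted p = 5.7e-08). The related clec-208 stood at 0.523, 0 and 0 FPKM and then at 205, 203, 178 and 283 FPKM. These larvae and adults did not overlap. The seminal fluid protease try-5, which activates sperm, rose by 3.72, from 0.261 to 0.654 FPKM at L3 to 15 to 20.6 FPKM, and its inhibitor swm-1 rose by 1.19, from 20.5 to 49.4 FPKM to 55.3 to 74.4 FPKM. The sperm transporter snf-10, through which the protease signal acts, rose by 2.56 to 5.20 to 9.13 FPKM. The 2 genes that fell were the gap junction gene inx-3 (-1.87) and the sheath cell homeobox gene ceh-18 (-0.69).

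Male-specific sensory neurons of the tail and head showed the same direction. Of 13 tested genes of these neurons (16 in the table), 9 rose and 2 fell, or 9 and 3 without L3 replicate 1. The count of falls was 0 without young adult replicate 1 or 2, and 1 without L3 replicate 3 or young adult replicate 3 or 4. All 5 tested members of the cwp family, named for coexpression with polycystins, rose. The cwp-2 gene stood at 6.69, 0 and 2.67 FPKM at L3 and at 80.8, 76.2, 77.5 and 114 FPKM in young adults, a change of 4.83 (SE 0.61, adjusted p = 4.99e-04). The polycystin genes pkd-2 and lov-1, needed for mate sensing, were close to absent in larvae. Respectively they stood at 0 to 0.0632 and 0 to 0.0138 FPKM at L3 and at 4.88 to 8.23 and 2.28 to 2.91 FPKM in young adults, with changes of 2.83 and 1.82. The transcription factors egl-46 and egl-44, which act together in neuron differentiation, fell by 1.51 and 0.64. The egl-46 call was lost in 5 of the 7 fits that left out a library, and the egl-44 call was lost without young adult replicate 1 or 2. General components of cilia did not rise with them. Of 24 tested genes of cilia and intraflagellar transport (47 in the table), 0 rose and 4 fell, with a median of -0.33, close to that of all genes.

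Regulators that pattern the male tail during larval life moved downward or did not pass. Of 16 tested, 0 rose and 8 fell, with a median of -0.58, and without L3 replicate 1 there were 1 and 7. Median ratio scaling gave 1 higher and 6 lower. The mab-7 gene, needed for male sensory ray shape, stood at 34.2, 22.4 and 55.2 FPKM at L3 and at 3.94, 1.71, 4.85 and 4.32 FPKM in young adults, a change of -2.99 (SE 0.37, adjusted p = 4.5e-04). The noncoding RNA lep-5, H36L18.2 in the table, which times the shaping of the male tail tip, went from 678 to 955 FPKM to 179 to 237 FPKM, a change of -1.96. Both fell in every adult library below every larval one. The doublesex-domain gene mab-3 behaved differently, at 111, 30.0 and 59.9 FPKM in L3 replicates 1 to 3 and at 104, 104, 99.8 and 100.3 FPKM in young adults. With all libraries its change of 0.79 did not pass (adjusted p = 0.115), and without L3 replicate 1 it was called higher at 1.24 (adjusted p = 0.00701). The related tail tip gene dmd-3, at means of 18.9 and 9.87 FPKM, did not pass.

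Upstream sex determination genes did not rise on FPKM as deposited, whereas median ratio scaling called 2 higher and 6 lower. Of 14 tested (17 in the table), 0 rose and 7 fell, or 6 without L3 replicate 1, where laf-1 lost its call. Those that fell include the X signal elements fox-1 (-1.02) and sex-1 (-1.13), which report X chromosome number early in development, and sdc-1, sdc-2 and sdc-3, which act in sex determination and dosage compensation (-0.92, -0.94 and -1.14). The fox-1 gene stood at 9.32, 15.2 and 8.12 FPKM at L3 and at 4.27, 4.64, 3.93 and 6.04 FPKM in young adults. The masculinizing genes fem-1, fem-2 and fem-3 changed by -0.17, -0.20 and -0.30 and did not pass. In XX animals the dosage compensation complex is known to bind both X chromosomes and lower their expression. Of its 10 genes tested, which include the 3 sdc genes, 0 rose and 6 fell with and without L3 replicate 1. Median ratio scaling called 1 of them higher and 4 lower. The condensin subunit dpy-27, which is specific to this complex, stood at 12.1, 12.7 and 17.9 FPKM at L3 and at 5.57, 5.10, 5.45 and 5.89 FPKM in young adults, a change of -1.21 (SE 0.18, adjusted p = 9.3e-04). The condensin subunits dpy-26, dpy-28 and capg-1, which serve in other condensins too, did not pass, with changes of 0.31, -0.16 and -0.01. Not all shared subunits held their level, since mix-1 was called lower, with a change of -0.68 (limma adjusted p = 0.0304). It stood at 19.2, 19.7 and 32.6 FPKM at L3 and at 13.1, 12.9, 14.5 and 16.2 FPKM in young adults.

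X-linked genes moved lower relative to autosomes. The median of X-linked genes minus that of autosomal genes, on the log2 scale, was -0.37, -0.16 and -0.28 in L3 replicates 1 to 3 and -0.93, -0.97, -0.90 and -0.96 in young adults. The difference of the stage means was -0.67, from -0.27 ± 0.11 (SD, n = 3) to -0.94 ± 0.03 (SD, n = 4), and by an exact two-sided permutation test over the 35 ways to assign the libraries p was 0.0286, the smallest possible here. That value compares medians of gene levels and is not the typical change of an X-linked gene. Taken gene by gene, the median log2 change was -0.391 on X and -0.235 to -0.095 on the autosomes, a smaller gap. Without L3 replicate 1 these medians were -0.421 and -0.245 to -0.099. Of 1955 X-linked genes tested, 240 were higher (12.3%) and 779 lower (39.8%). On the autosomes 20.5% to 29.8% were higher and 26.3% to 29.8% lower. Without L3 replicate 1 the shares were 11.4% and 36.7% on X, and 20.1% to 29.5% and 24.2% to 27.5% on the autosomes. The sum of sperm genes, which lie on autosomes, rose in the same libraries, and its part in the X difference was not tested. Without L3 replicate 1 the difference was -0.72.

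General germline genes changed far less than sperm genes. Of 62 genes of the germ line and meiosis, 17 rose and 2 fell, with a median of 0.24, and 16 and 2 did so without L3 replicate 1. The count of falls was 1 without young adult replicate 1, 2 or 3 and 4 without replicate 4. The share that rose (27.4%), near that of all genes (23.2%), depended on scaling, since median ratio scaling called 41 higher. In contrast the share that fell, 3.23%, was well under that of all genes (30.3%). The lab-1 gene, which protects sister chromatid cohesion in meiosis, was the exception in size, at 1.82, 0.967 and 1.45 FPKM at L3 and 31.2, 29.1, 31.5 and 46.3 FPKM in young adults, a change of 3.87 (SE 0.22, adjusted p = 8.6e-06). The P granule gene pgl-3 rose by 1.45, the synapsis kinase plk-2 by 1.14 and the Argonaute csr-1 by 1.01. P granule genes pgl-1 and glh-1, at mean levels of 40.5 and 110 FPKM at L3, changed by 0.07 and 0.06 and did not pass. The Notch receptor glp-1, which keeps germline stem cells dividing, had means of 8.81 and 6.22 FPKM and did not pass.

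Genes of oocytes and of yolk were also higher in the adult males, at levels well under those of hermaphrodites. Of 34 oocyte and eggshell genes, 23 rose and 3 fell, with a median of 0.74, or 20 and 3 without L3 replicate 1. Their summed level was 285 to 362 FPKM at L3 and 573 to 775 FPKM in young adults, against 12420 to 15147 FPKM in the 3 young adult libraries of XO hermaphrodites of strain TY2205. Those animals differ in strain as well as sex. The eggshell layer genes perm-2 and perm-4, C44B12.1 and C44B12.5 in the table, changed most. C44B12.1 was listed at 0 in the larvae and stood at 55.3, 65.5, 88.5 and 120 FPKM in the adults, and C44B12.5 went from 0 to 0.242 FPKM to 42.7 to 89.3 FPKM, a change of 5.6. The RNA-binding protein mex-5 rose by 2.22 and the oocyte maturation regulator oma-1 by 1.78, from 6.43 to 12.6 FPKM to 24.9 to 38.3 FPKM. The oocyte and larval timing gene lin-41 fell by 1.82.

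All 6 yolk protein genes rose, with a median change of 6.26 (6.28 without L3 replicate 1). The vit-2 gene stood at 1.73, 0.129 and 0.197 FPKM at L3 and at 268, 369, 275 and 372 FPKM in young adults, a change of 7.68 (SE 0.33, adjusted p = 1.9e-06). No larva reached the level of any adult. The 6 genes, which encode the vitellogenins that the hermaphrodite intestine is known to export to oocytes, summed to 801 to 1171 FPKM in young adult XX males and to 17541 to 27232 FPKM in young adult XO hermaphrodites. Oocyte and yolk genes rose in the same libraries, and the part of animals of another sex in these levels was not tested. Genes of the vulva and of egg laying did not rise, with 0 higher and 6 lower of 10 tested, and 0 and 5 without L3 replicate 1. The zinc finger gene vab-23, which acts in vulval morphogenesis, went from 16.1 to 29.7 FPKM to 5.73 to 10.1 FPKM.

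The cuticle collagens differed sharply between the stages in which genes were abundant. Of 153 genes tested on the 2 collagen lists, 50 rose and 71 fell, or 52 and 64 without L3 replicate 1. A mean above 1000 FPKM was reached by 25 at L3, by 26 in young adults and by 5 at both stages, and 17 went from under 10 FPKM at L3 to above 1000 FPKM in young adults. The 8 largest rises among tested genes that met the criteria for naming were collagens. The col-119 gene stood at 0.172, 0.381 and 0.0959 FPKM at L3 and at 8792, 11029, 9669 and 7984 FPKM in young adults, a change of 12.91 (SE 0.17, adjusted p = 2.3e-08). The adult-specific collagen col-19, used as a marker of the adult epidermis, stood at 0, 0.177 and 0.106 FPKM and then at 6135, 6532, 6925 and 3771 FPKM, a change of 12.35 (SE 0.23). Without L3 replicate 1 these changes were 12.88 and 12.28. The most abundant transcript of the set in young adults was col-124, at 13148, 15727, 14980 and 7784 FPKM, from 0.953 to 4.21 FPKM in larvae.

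Other collagens fell, 2 of them from a mean above 1000 FPKM at L3 to under 100 FPKM in young adults. The col-41 gene stood at 1527, 892 and 1986 FPKM at L3 and at 11.9, 3.43, 23.5 and 8.94 FPKM in young adults, a change of -7.0 (SE 0.55, adjusted p = 5.9e-05). The col-54 and col-90 genes fell by 6.28 and 6.26 on the log2 scale. Adult replicate 2 was lowest and adult replicate 3 highest for each of these 3 genes. Of the 132 numbered collagens, 49 rose and 54 fell, or 50 and 48 without L3 replicate 1. Collagens named for body shape mutants fell almost throughout, with 1 higher and 17 lower of 21, a median of -3.90, and 2 and 16 without L3 replicate 1. The list also holds dpy-18, which encodes a collagen prolyl hydroxylase subunit and not a collagen, and which fell by 2.19. The sqt-2 gene stood at 559, 265 and 1334 FPKM at L3 and at 33.1, 5.88, 57.5 and 13.2 FPKM in young adults, a change of -4.80. The furrow collagen dpy-7 fell by 4.36 on that scale, and dpy-13 fell by 3.78. The exception was rol-1, at 6.19, 0.341 and 4.76 FPKM at L3 and 127, 45.4, 212 and 66.3 FPKM in young adults, which rose by 4.65. The adult strut collagen bli-1 was at 40.7 FPKM in L3 replicate 1, 0.155 and 0.574 FPKM in the other larvae and 6.21 to 40.1 FPKM in young adults, and was called higher only without L3 replicate 1 (adjusted p = 0.198 with it and 0.00199 without it).

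**Figure D4:**
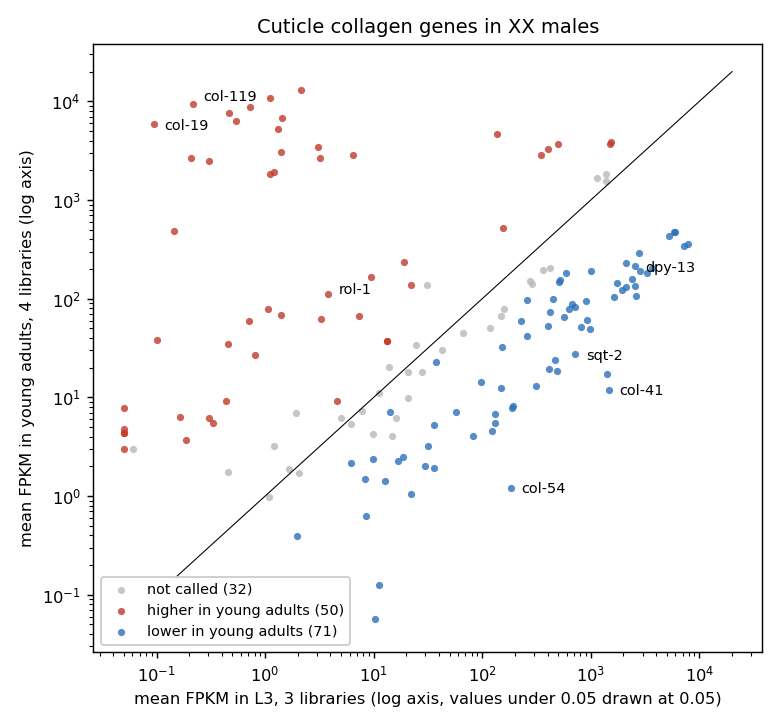
Mean FPKM of each tested member of the collagen lists at L3 (x axis, 3 libraries) and in young adults (y axis, 4 libraries), both on log axes with the diagonal marking equal levels and colours marking calls. A group near the top left, with col-19 and col-119, goes from under 10 to above 1000 FPKM, and a band under the diagonal, with dpy-13, sqt-2, col-41 and col-54, falls.

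Genes of molting fell with the larval collagens. Of 32 effectors, 1 rose and 26 fell, with a median of -3.01, and 0 and 25 did so without L3 replicate 1. The only member called higher was the kinase gene nekl-2 (0.79), whose call was lost without L3 replicate 1 or 2 and without young adult replicate 1, 2 or 4. The mlt-8 gene, required for molting, stood at 304, 145 and 512 FPKM at L3 and at 16, 5.62, 23.2 and 8.61 FPKM in young adults, a change of -4.48 (SE 0.55, adjusted p = 4.4e-04). The apical matrix gene noah-1 and the lipocalin gene lpr-3 fell by 4.47 and 4.57, and the metalloprotease nas-37, which sheds the old cuticle, by 4.09. Larvae ranged widely for these genes, with replicate 2 lowest and replicate 3 highest for mlt-8 and lpr-3, as for sqt-2, rol-6 and wrt-10. The summed level of the effectors was 4343, 2585 and 7226 FPKM at L3 and 327 to 665 FPKM in young adults, without overlap.

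Timing genes of the larval stages fell less uniformly. Of 31, 1 rose and 20 fell, with a median of -1.17, or 2 and 21 without L3 replicate 1. The lin-42 gene stood at 353, 274 and 400 FPKM at L3 and at 33.4, 11.6, 64.3 and 22.5 FPKM in young adults, a change of -3.57 (SE 0.50, adjusted p = 7.9e-04). The nuclear hormone receptor nhr-25, needed for molting and epidermal fate, stood at 32.4, 22.9 and 33.7 FPKM and then at 0.798, 0.253, 0.690 and 0.561 FPKM, a change of -4.28 (SE 0.21, adjusted p = 3.9e-06). The membrane-bound transcription factor gene myrf-1, pqn-47 in the table, fell by 3.20, the zinc finger gene hbl-1 fell by 2.2 and the F-box gene dre-1 fell by 1.87. These genes did not overlap between the stages. The lin-29 gene, which triggers the larval-to-adult switch of the epidermis, stood at 33.9, 13.3 and 32.9 FPKM at L3 and 17.5 to 22.6 FPKM in young adults and did not pass (adjusted p = 0.548), and neither did lin-14 or lin-28, which act early (adjusted p = 0.0917 and 0.121). The GATA factor elt-1 was the gene called higher, at 14.5, 10.5 and 12.3 FPKM at L3 and 26.8, 25.8, 25.9 and 34.3 FPKM in young adults.

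Hedgehog-related and patched-related genes, many of which are known to act in the epidermis and its molts, moved in the same direction. Of 68 tested (86 in the table), 7 rose and 43 fell, with a median of -1.72, or 6 and 43 without L3 replicate 1. The count of rises was 3 or 4 in fits without L3 replicate 3 or young adult replicate 1 or 4. By family, 7 of 9 warthog (wrt), 6 of 12 groundhog (grd), 11 of 19 groundhog-like (grl) and 16 of 23 patched-related (ptr) genes fell. The wrt-10 gene, among the 10 largest falls, went from 155, 80.9 and 303 FPKM to 4.68, 1.39, 6.42 and 3.09 FPKM, a change of -5.12. In the opposite direction grd-3 stood at 148, 140 and 38.9 FPKM at L3 and at 485, 537, 486 and 517 FPKM in young adults, a change of 2.43 (SE 0.43, adjusted p = 0.00239).

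**Figure D5:**
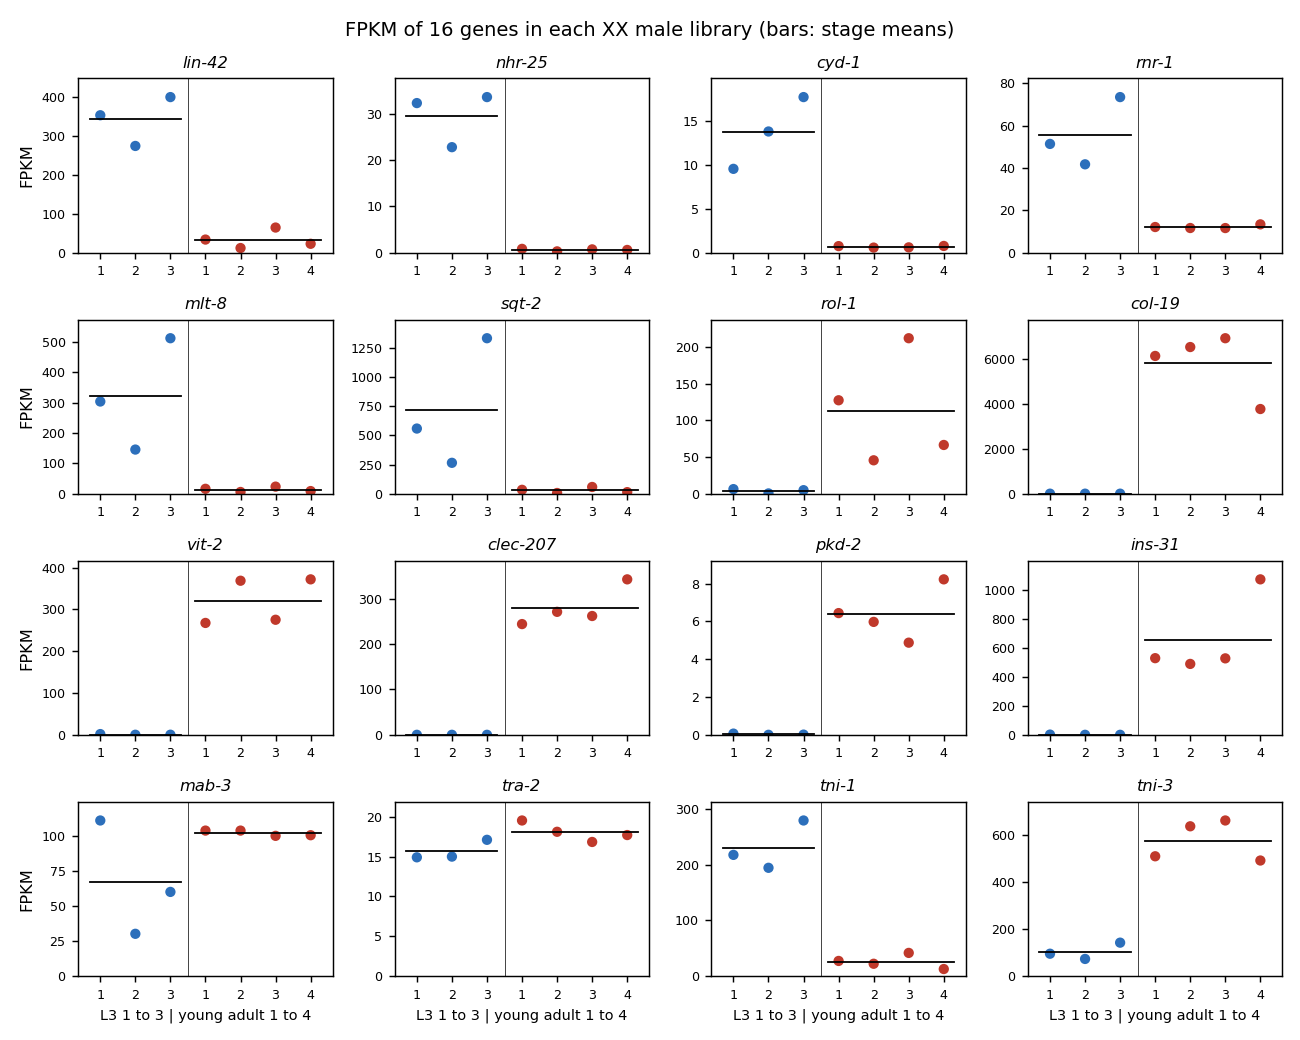
FPKM (y axis, from 0) of 16 genes in each XX male library (x axis, L3 replicates 1 to 3 and young adult replicates 1 to 4), with black bars at stage means. Timing, cell cycle and molting genes such as lin-42, cyd-1 and mlt-8 are high in larvae, col-19, vit-2, clec-207 and ins-31 are near 0 in larvae, and mab-3 in L3 replicate 1 (111 FPKM) lies above the adults.

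Most genes of DNA replication were lower in young adults. Of 37 tested, 0 rose and 22 fell (59.5%, against 30.3% of all genes), with a median of -0.72, and 0 and 24 did so without L3 replicate 1. Without L3 replicate 3, 2 were called higher and 19 lower, and under median ratio scaling 2 were called higher and 15 lower. The ribonucleotide reductase gene rnr-1, which makes the precursors of DNA, stood at 51.3, 41.7 and 73.5 FPKM at L3 and at 12.1, 11.6, 11.6 and 13.3 FPKM in young adults, a change of -2.07 (SE 0.21, adjusted p = 1.9e-04). The replicative helicase subunits mcm-2 to mcm-7 all fell, with changes of -1.62 to -0.84. Cyclins and mitosis genes split instead, with 18 higher and 10 lower of 46, or 14 and 10 without L3 replicate 1. The count of falls was 6 without young adult replicate 1, 6 without replicate 2 and 6 under median ratio scaling. Cyclin D, cyd-1, which acts in the first growth phase of the cycle, stood at 9.51, 13.8 and 17.7 FPKM at L3 and at 0.730, 0.563, 0.589 and 0.749 FPKM in young adults, a change of -3.11 (SE 0.21, adjusted p = 2.9e-05). Its partner kinase cdk-4 fell by 2.31, and the inhibitor cki-1 by 1.86. In contrast the mitotic cyclin cyb-1 stood at 57.4, 39.7 and 38.0 FPKM at L3 and at 254, 254, 242 and 358 FPKM in young adults, a change of 2.60 (SE 0.21, adjusted p = 7.5e-05). The phosphatase gene cdc-25.4 rose by 3.15 and the Aurora kinase air-2 by 1.09.

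Of 68 histone genes (his), 12 were higher (17.6%) and 24 lower (35.3%), shares near those of all genes (23.2% and 30.3%), or 12 and 22 without L3 replicate 1. The median of -0.05 was 0.20 under median ratio scaling and 0.03 without L3 replicate 1. In this list 27 genes share identical values with another member, leaving 53 distinct sets of values. The H3 variant gene his-70 stood at 49, 0 and 9.87 FPKM at L3 and at 95.4 to 119 FPKM in young adults. Its change was 3.69 (limma adjusted p = 0.0242), and 5.00 without L3 replicate 1 (adjusted p = 0.00145). The call was lost in 4 of the 7 fits that left out a library. The his-32 gene fell by 3.91, from 11.3 to 36.0 FPKM to 0.226 to 0.809 FPKM.

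Ribosomal protein genes were lower in young adults almost throughout. Of 78, 1 rose and 74 fell, with a median of -1.09, and 1 and 69 did so without L3 replicate 1. Under quantile normalization the median was -0.75. They made up 32.2%, 31.8% and 33.2% of all FPKM in L3 replicates 1 to 3 and 16.1%, 15.6%, 18.5% and 14.4% in young adults, without overlap. The rpl-11.2 gene stood at 3091, 2706 and 4011 FPKM at L3 and at 865, 763, 1060 and 800 FPKM in young adults, a change of -1.90 (SE 0.18, adjusted p = 1.6e-04). The only member called higher was rpl-42, at 2.57, 0 and 0.410 FPKM at L3 and 20.2, 23.5, 20.3 and 31.3 FPKM in young adults. Mitochondrial ribosomal proteins fell as well, with 0 higher and 61 lower of 65 and a median of -1.06, or 59 lower without L3 replicate 1. Among them, mrpl-15 (Y92H12BR.8 in the table), went from 67.9 to 106 FPKM to 15.9 to 22.8 FPKM.

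Among 41 nuclear genes of oxidative phosphorylation 5 rose (12.2%, against 23.2% of all genes) and 2 fell, or 5 and 0 without L3 replicate 1, with a median of -0.03 that was 0.30 under median ratio scaling and 0.03 without L3 replicate 1. The counts also moved in other fits, with 3 higher without young adult replicate 4, 7 lower without L3 replicate 2, 0 or 1 lower in the 5 fits without L3 replicate 3 or a young adult replicate, and 20 lower under quantile normalization. The cytochrome c gene cyc-2.2 stood at 63.6, 0.599 and 12.9 FPKM at L3 and at 263, 273, 351 and 306 FPKM in young adults, a change of 4.72 with and 5.98 without L3 replicate 1 (adjusted p = 0.00656 and 3.4e-04). Its paralog cyc-2.1 stood at 1883 to 3143 FPKM at L3 and 2369 to 2687 FPKM in young adults and did not pass (0.03). The adenine nucleotide carriers ant-1.3 and ant-1.4 rose by 4.34 and 3.39, or 5.58 and 4.43 without L3 replicate 1. In contrast ant-1.1 stood at 5595 to 5804 FPKM and 4939 to 6418 FPKM and did not pass. For cyc-2.2, ant-1.3 and ant-1.4, L3 replicate 1 was the highest larva and replicate 2 the lowest, the order seen for sperm genes. Glycolysis had 9 higher and 1 lower of 19, or 10 and 1 without L3 replicate 1, and 5 higher without L3 replicate 3 or young adult replicate 2. The phosphofructokinase gene pfk-1.2, C50F4.2 in the table, rose by 3.28, from 4.56, 0.0656 and 1.08 FPKM to 19.7 to 23.6 FPKM, and the main glyceraldehyde phosphate dehydrogenases gpd-2 and gpd-3 rose by 0.66 and 0.65.

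Signalling peptides held some of the large single changes. Of 31 tested insulin-like genes (40 in the table) 8 rose (25.8%) and 6 fell (19.4%), against 23.2% and 30.3% of all genes. Without L3 replicate 1, 6 rose and 7 fell. Their median of -0.03 was 0.29 under median ratio scaling. The ins-31 gene stood at 1.42, 0 and 0 FPKM at L3 and at 528, 488, 527 and 1071 FPKM in young adults, a change of 8.85 (SE 0.40, adjusted p = 2.7e-06). The ins-7 gene rose by 3.46 and ins-35 fell by 3.52. FMRFamide-like peptide genes gave 6 higher and 0 lower of 31, or 4 and 0 without L3 replicate 1. They gave 11 higher without L3 replicate 2, 16 under median ratio scaling and 3 lower under quantile normalization. The flp-23 gene went from 0.682, 0 and 0 FPKM to 33.5, 34.6, 31 and 45.0 FPKM. Of 72 other neuropeptide-like genes 13 rose (18.1%) and 11 fell (15.3%), or 9 and 8 without L3 replicate 1. Without young adult replicate 4, 8 rose, and the falls were 6 or 7 without L3 replicate 2 or young adult replicate 1, 2 or 3. The nlp-45 gene, T01B6.4 in the table, rose by 3.94, from 3.43 to 6.20 FPKM to 76.6 to 108 FPKM.

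Genes of synapses and transmitters gave 5 higher and 5 lower of 35 (14.3% each), against 23.2% and 30.3% of all genes. Without L3 replicate 1 the counts were 5 and 6. The median of -0.09 was 0.16 under median ratio scaling. The vesicular monoamine transporter cat-1 stood at 2.10, 3.30 and 2.53 FPKM at L3 and at 24.9, 24.1, 21.2 and 22.6 FPKM in young adults, a change of 2.74 (SE 0.17, adjusted p = 1.4e-05). The tyrosine decarboxylase tdc-1, which makes tyramine, rose by 1.71, from 3.27 to 8.16 FPKM to 17.2 to 24.0 FPKM. The GABA transporter snf-11 fell by 1.27. Sensory receptors of the chemoreceptor families were mostly under the filter, with 22 of 1339 tested, of which 2 rose and 4 fell with and without L3 replicate 1.

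Muscle genes gave 11 higher (29.7%) and 10 lower (27%) of 37, shares near those of all genes (23.2% and 30.3%). Without L3 replicate 1 the counts were 10 and 9. The median of 0.15 was -0.12 under quantile normalization. Within the troponin I family, whose proteins hold back contraction at rest, members moved in opposite directions. The tni-3 gene stood at 95.0, 72.6 and 142 FPKM at L3 and at 511, 639, 664 and 493 FPKM in young adults, a change of 2.51 (SE 0.24, adjusted p = 1.7e-04). The tni-1 gene stood at 218, 195 and 280 FPKM at L3 and at 27, 22, 41.5 and 12.4 FPKM in young adults, a change of -3.22 (SE 0.37, adjusted p = 3.3e-04). Neither gene overlapped between the stages. The body wall myosin gene unc-54 stood at 1327 to 1578 FPKM at L3 and 1426 to 2099 FPKM in young adults and did not pass.

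Intestinal genes gave 7 higher (16.7%) and 9 lower (21.4%) of 42, both shares under those of all genes (23.2% and 30.3%). Without L3 replicate 1 the counts were 4 and 7. The count of rises was also 4 without L3 replicate 2 or young adult replicate 2. The count of falls was 16 without L3 replicate 2 and 18 under quantile normalization. The peptide transporter pept-1 stood at 77.0, 88.3 and 96.4 FPKM at L3 and 27.8, 24.0, 25.0 and 26.5 FPKM in young adults, a change of -1.71 (SE 0.15, adjusted p = 9.7e-05). The fatty acid desaturase fat-5 rose by 2.46, from 8.80 to 20.2 FPKM to 62.2 to 111 FPKM. Among 19 desaturases, elongases and the fatty acid synthase, 6 rose and 6 fell (31.6% each), or 5 and 6 without L3 replicate 1. Their median of -0.10 was 0.23 under median ratio scaling. The elongases elo-7 and elo-8 rose by 3.23 and 3.49 and the synthase fasn-1 fell by 1.62.

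C-type lectin genes, many of which encode secreted sugar-binding proteins, mostly rose. Of 149 tested (256 in the table), 94 rose and 15 fell, with a median of 1.35, and 87 and 17 did so without L3 replicate 1. The clec-99 gene stood at 0.264, 0 and 0 FPKM at L3 and at 514, 522, 518 and 703 FPKM in young adults, a change of 9.02 (SE 0.18, adjusted p = 5.7e-08). The clec-94 gene was listed at 0 in the larvae and stood at 280 to 504 FPKM in young adults. The clec-180 gene went the other way, from 18.3 to 156 FPKM to 1.62 to 5.36 FPKM. Nematode-specific peptide genes divided by subfamily. Of nspa genes 8 of 9 rose, of nspd genes 9 of 9 rose, of nspb genes 8 of 9 fell and of nspc genes 18 of 18 fell. These 4 counts were the same without L3 replicate 1, whereas nspe had 2 lower of 3 with that replicate and 0 without it. The nspa median was 7.46, or 9.03 without L3 replicate 1. The nspd-2 gene stood at 239, 0 and 6.80 FPKM at L3 and at 3802, 4860, 5887 and 6376 FPKM in young adults, with changes of 8.70 with and 10.84 without L3 replicate 1. The nspc-4 gene stood at 35.8, 43.1 and 95.8 FPKM and then at 0.979, 1.18, 1.19 and 1.17 FPKM. In this list 6 of 48 genes share identical values with another member.

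Among the remaining named genes, fipr-16 and fipr-17, of the fungus-induced protein related family, were among the 10 largest rises. The fipr-16 gene was listed at 0 in the larvae and stood at 1887, 2592, 2834 and 2716 FPKM in young adults. Of the 26 fipr genes tested 8 rose and 4 fell, or 8 and 3 without L3 replicate 1. Their median of -0.27 was near the -0.21 of all genes. Lysozymes and saposin-like proteins gave 11 higher and 2 lower of 32, or 9 and 2 without L3 replicate 1, and 6 lower without young adult replicate 4. The saposin-like gene spp-17 rose by 1.32, from 526 to 1031 FPKM to 1606 to 1991 FPKM. Heat shock and stress genes gave 9 higher and 4 lower of 24, or 12 and 2 without L3 replicate 1. The chaperone gene hsp-4, a marker of stress in the endoplasmic reticulum, rose by 1.56 and the small heat shock gene hsp-43 by 2.18, while the glutathione transferase gst-4 fell by 1.35. Young adults were grown at 25 °C and the larval temperature is not given, so for these genes temperature cannot be told apart from stage.

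Nuclear hormone receptors, a family expanded in nematodes, had 4 higher and 75 lower of 164 tested (280 in the table), with a median of -0.54, and 4 and 69 without L3 replicate 1. The count of rises was 7 without L3 replicate 2 and 11 under median ratio scaling. The count of falls was 48 without young adult replicate 1 and 48 without replicate 2, and 42 under median ratio scaling. The nhr-91 gene stood at 21.2, 23.6 and 30.3 FPKM at L3 and 2.91, 1.86, 2.53 and 3.70 FPKM in young adults, a change of -2.80. The nhr-235 gene fell by 2.98, from 10.1 to 12.5 FPKM to 0.181 to 0.912 FPKM. The molt regulator nhr-23, with means of 29.9 and 37.0 FPKM, did not pass.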

How the data were processed

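Expression values are FPKM, made and deposited by the authors as a single table with genes in rows and libraries in columns. Per the submitters' processing notes, Cufflinks 2.2.0 was used. The aligner, the build and the annotation were not given in the sources used here, and no coordinates are printed. Depth is not recorded. Of 20417 rows, 6 repeats were removed, and 22 empty genes and 13 with values only in XX male young adults (12 mitochondrial) were left out. Whether those columns were quantified with other settings is unknown; if they were, the scale of FPKM would differ between the stages. Gene names are those of the table. The 14 value columns matched the labels, with 0 unmatched.

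Tests used log2(FPKM + 1), which understates changes of low genes, for genes averaging at least 1 FPKM, with limma 3.58.1 in R 4.3.3 (lmFit, eBayes with trend, 2 group means over 7 libraries, no covariates) and Benjamini-Hochberg adjustment at 0.05. Python 3.11.15, pandas 2.3.3, numpy 2.4.6 and matplotlib 3.10.9 were used for counts and figures. Named genes were the 10 largest rises and falls among called, non-overlapping genes averaging at least 10 FPKM at their higher stage, up to 3 called genes per list and direction, the 5 most abundant genes of each stage, the 10 called genes that moved most without L3 replicate 1, and xol-1, tra-2, tra-1, her-1, mab-3 and vit-2. Other genes in the text are list members chosen for their roles after their values were seen. The members and the 37 lists were chosen with earlier results of these data known, and the chemoreceptor list was corrected afterwards because its pattern also took in unrelated genes. Simulated data of 14458 genes were made for this comparison. Of 100 genes changed by 1 on the log2 scale 34 were recovered, and of 100 changed by 2, 96 were. In addition 48 unchanged genes were called, a larger share of the simulated calls than the 0.05 that the adjustment aims at. Far fewer genes changed there than in the real data, so the share of false calls in the real data is not known from it. Alternatives covered the pseudocount, filter, scaling, weights, trend, replicate block, samples fitted, thresholds and leaving out each library. Replicate numbers did not pair the libraries: deviations from the stage means of same-numbered libraries correlated at -0.05, 0.04 and 0.12.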

Additional observations from a re-analysis of the deposited data

Results flagged for a closer look

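Each summed list and named gene was screened in the 4 young adult libraries for a library far from the other 3. Of 225 checked, 37 had one, and in most of them it was young adult replicate 4. The cut would flag about 1 in 20 by chance, but the items are not independent. Some named genes are part of the list sums, and all items share the same 4 libraries. The 37 therefore cannot be set against that rate. No explanation was tested.

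Young adult replicate 4 stood above the other adults in summed FPKM of several lists. Major sperm proteins summed to 45852 there against 31155 to 31267, sperm formation genes to 22358 against 15803 to 16679, and seminal fluid and male gonad genes to 742 against 540 to 562. Oocyte and eggshell genes summed to 775 against 573 to 598, and cyclins and mitosis genes to 1621 against 1211 to 1271. Insulin-like peptides reached 1916 against 1061 to 1089, FMRFamide-like peptides 3023 against 1876 to 1970, and other neuropeptide-like proteins 6656 against 5212 to 5414. Synapse genes reached 1196 against 996 to 1022, intestinal genes 30297 against 17836 to 19657, and nuclear hormone receptors 1143 against 905 to 936.

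Single genes of germ line and gonad were also high in replicate 4, in FPKM: msp-76 at 4026 against 2259 to 2444, lab-1 at 46.3 against 29.1 to 31.5, C44B12.5 at 89.3 against 42.7 to 44.0, and cyb-1 at 358 against 242 to 254. The same held for cwp-2 at 114 against 76.2 to 80.8, laf-1 at 57.2 against 54 to 54.2, cki-1 at 11.2 against 7.0 to 7.2, and elt-1 at 34.3 against 25.8 to 26.8. Secreted peptides and lectins in that library were ins-31 at 1071 against 488 to 528, flp-28 at 428 against 231 to 243, flp-21 at 249 against 114 to 126, clec-99 at 703 against 514 to 522, clec-197 at 752 against 448 to 467, and clec-94 at 504 against 280 to 296. The invertebrate lysozyme ilys-2 differed most, at 337 against 24.4 to 38.6, with sip-1 at 2070 against 1032 to 1137 and the protease cpr-5 at 371 against 185 to 200. Replicate 4 was the lowest for col-178, at 5681 against 6412 to 6520, for hsp-60, at 87.0 against 160 to 175, and for tra-1, at 43.9 against 63.4 to 64.9.

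Young adult replicate 3 stood apart for ribosomal proteins, with a sum of 240428 FPKM against 183278 to 186681, for rpl-29, at 32840 against 15207 to 16615, for rpl-31, at 7372 against 5240 to 5494, and for ins-7, which was lower at 39.1 against 47.8 to 49.6. The rpl-29 call was lost in 6 of the 7 fits that left out a library. The lin-31 gene was higher in replicate 2, at 6.33 against 5.86 to 5.89, and nspc-4 was lower in replicate 1, at 0.979 against 1.17 to 1.19.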

How the results depend on the processing

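All 181 named genes that were called kept their direction under the 21 alternatives, and 39 of them lost the call in at least 1. The count of genes called higher stayed within 1.5 times of 3350 in every alternative, and ranged from 3029 to 3380 when 1 library was left out. The count called lower ranged from 3302 to 4736 when 1 library was left out, and was 2720 at an adjusted p of 0.01 and 2294 for changes of at least 1 on the log2 scale, both by construction stricter. The X difference of -0.67 kept its direction, from -0.72 to -0.62 without each library in turn, where p was 0.0667 or 0.1, the smallest possible with fewer libraries. With the replicate number as a block 2973 genes were called higher and 3706 lower, and 16 named genes lost the call. The median of all genes and those of 6 of the 37 lists changed sign under a scaling, as given with those lists.

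The limits are few larval libraries, 2 of them shallow, and sperm transcripts in larvae, most of all in L3 replicate 1 and at lower levels in replicate 3. Named genes whose calls were lost in 5 or more of the 7 fits without 1 library were asb-2, egl-46, hsp-12.1, laf-1, mex-3, mrg-1, nekl-2, nlg-1, nuo-1 and rpl-29. Unadjusted p was under 0.05 for 8631 genes, and the fit over 13 libraries in 4 groups called 3268 higher and 4194 lower. Where several near-identical genes share reads, the split between them is uncertain.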

Other observations

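Several of the 10 largest falls were in genes outside the lists. C05G5.7 stood at 1671, 5540 and 5929 FPKM in L3 replicates 1 to 3 and at 173, 55.6, 90.4 and 33.5 FPKM in young adults, and K01D12.9 at 300.2, 82.1 and 329 FPKM and then at 3.47, 0.737, 5.99 and 1.43 FPKM. F53F1.5 stood at 2274, 2401 and 1763 FPKM in larvae and 22.9 to 116 FPKM in young adults. Y48E1B.8 went from 44.7 to 124 FPKM to 0.381 to 1.14 FPKM, F44G3.2 from 49.4 to 127 FPKM to 0.839 to 1.71 FPKM, and ZK1025.3 from 73.0 to 284 FPKM to 1.04 to 6.29 FPKM. For all 6 genes the lowest larva lay above the highest adult.

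The 5 most abundant transcripts at L3 were rpl-29, rpl-36, Y37E3.8, Y82E9BR.3 and rpl-31. In young adults 3 collagens, col-119, col-122 and col-124, entered the 5 most abundant, beside rpl-29 and Y82E9BR.3. Y82E9BR.3 stood at 6994 to 12452 FPKM at L3 and 10404 to 16804 FPKM in young adults, and its log2 change of 0.42 did not pass the test (adjusted p = 0.189).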
